A study of Oryctolagus cuniculus with 3 samples.

Results

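Amino acid transporters of 6 solute carrier families were followed in cumulus-oocyte complexes, each the oocyte with the somatic cells around it, of rabbits (Oryctolagus cuniculus) kept under different ammonia concentrations. The members are the rows of the deposited gene tables whose gene name belongs to the families SLC1, SLC3, SLC7, SLC36, SLC38 or SLC43. The rule found 44 of 39681 gene rows. Of these, 38 rows carry a RefSeq messenger RNA and stand for 1 gene each, and 6 are assembled rows without a RefSeq transcript that carry a member's name.

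The labels describe 150 female IRA rabbits, 35 days old when they were divided into groups and kept for 4 weeks in rooms with controlled air. The library labelled CG came from animals under less than 3 ppm of ammonia, the library labelled LAC from 10 ppm and the library labelled HAC from 30 ppm. There was 1 library in each group, and the number of animals behind it is not given in these sources. With 1 library in each group no test between groups was possible, and no difference below has a replicate check.

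The deposited gene tables of LAC and HAC were identical in every cell and both were headed LAC, so they were used once, under that label. The highest FPKM in the shared table is 39492, which is the maximum stated in the HAC file. The LAC file states 86393.85. The coverage of single-transcript loci listed under LAC in the long non-coding table gave back the shared counts at 100% of 8638 loci, and the coverage listed under HAC at 5.26% of 8795. Which animals the shared table stands for is therefore uncertain, and every direction below belongs to the library labelled LAC. Estimated counts summed to 78461882 in CG and 68523767 in LAC. A deposited count stands for about 0.5 of a read, because counts equalled coverage times length divided by 75, while the reads were longer. Levels are given as CPM, the estimated counts scaled to 1000000 per library, and adjusted by trimmed mean of M values (TMM), and differences as LAC minus CG of log2(CPM + 1), a scale that understates the change of low genes. A member was called when this difference was at least 1 in size and 10 or more counts were present in at least 1 of both libraries. Fold values are ratios of CPM with an exact binomial 95% interval, which covers counting error between these libraries only.

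Amino acids do not cross cell membranes freely, and each transporter family carries a different set of them. SLC3 proteins are heavy chains that bring SLC7 light chains to the cell surface, and the pairs mostly exchange one amino acid for another. Many SLC38 and SLC1 proteins, but not all, use the sodium gradient to concentrate amino acids, and SLC43 proteins are facilitators. Several SLC36 proteins use protons, and they often sit on lysosomes. In the follicle, cumulus cells take up several amino acids that the oocyte itself takes up poorly and pass them on through gap junctions. Glutamine, carried by several SLC38 and SLC1 members, takes up ammonia when it is made from glutamate.

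Of the 38 member genes, 33 had a count in at least 1 library and 31 had enough counts. In LAC, 9 of the 31 were lower by the size rule, which is 29.0%, and 0 were higher. Among all 15009 coding rows with enough counts, 11.0% were lower and 1.89% higher by the same rule. The median difference of the 31 was -0.28, beside -0.14 over the coding rows. With deposited FPKM both medians were -0.14, and with a count minimum of 100 they were -0.10 and -0.17. The 9 were SLC3A1, SLC7A7, SLC1A2, SLC38A8, SLC43A2, SLC36A1, SLC38A9, SLC7A2 and SLC38A1. They belong to all 6 families, and in each family at least 1 other member was not called. Levels of the 33 detected genes summed to 849 CPM in CG and 670 CPM in LAC. The sum over all coding rows was also lower in LAC, at 747000 CPM in CG and 664000 CPM in LAC. Of the 17 members with a mean of 10 CPM or more, 6 were lower, where 10.9% of coding rows of that level were. Of the 10 members with a mean of 1 to 10 CPM, 3 were lower, where 17.9% of such coding rows were. The 2 called members nearest to the limit were SLC38A1, at -1.01, and SLC7A2, at -1.12. The 2 nearest outside it were SLC38A5, at 0.77, and SLC38A11, at -0.68.

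**Figure D1:**
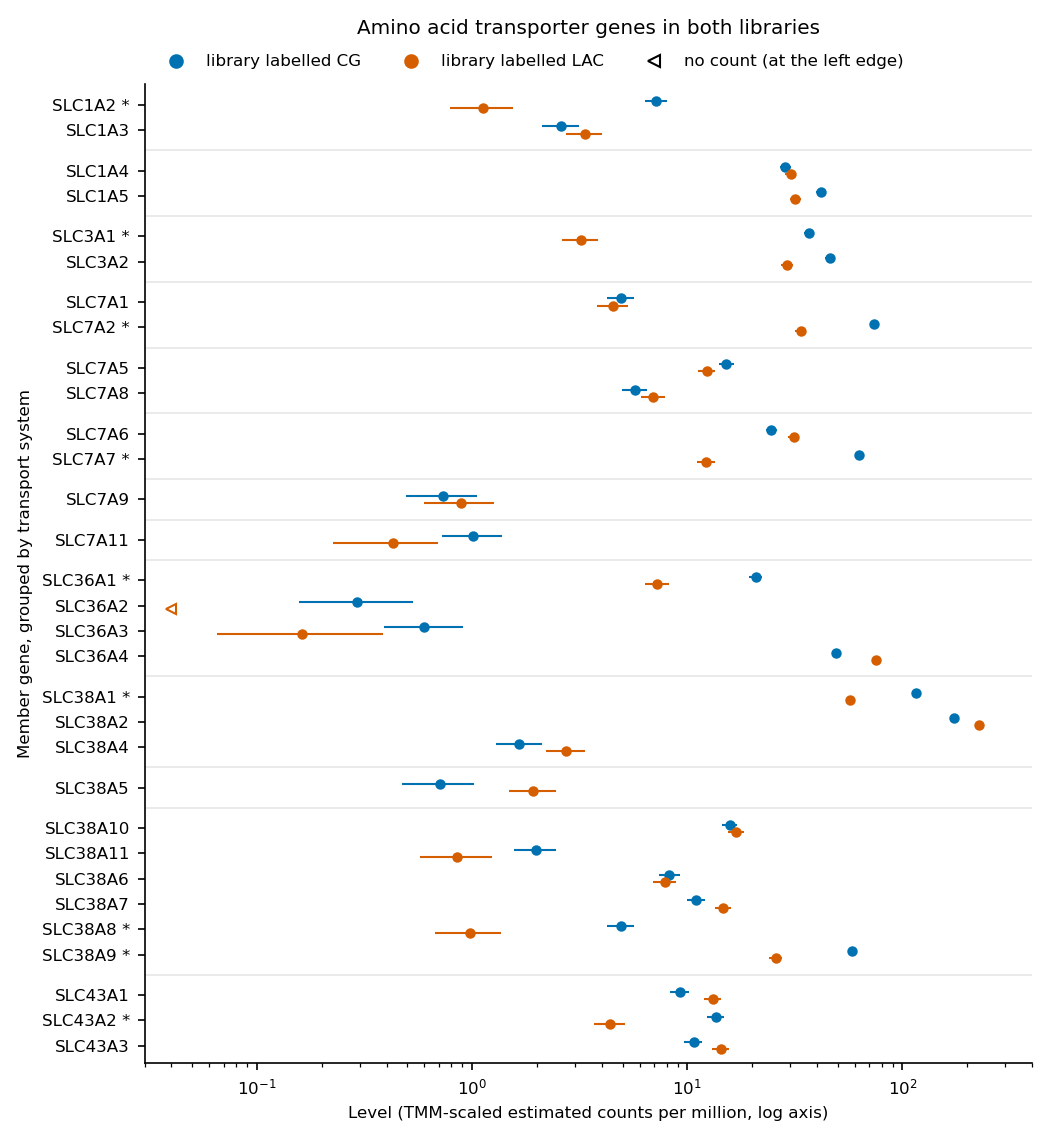
Level of each of the 31 member genes with enough counts in the libraries labelled CG and LAC, in TMM-scaled CPM on a log axis, grouped by transport system. Bars are exact Poisson 95% intervals of the halved counts, asterisks mark the 9 called genes, and levels are to be compared within a gene only, since CPM is not scaled by length.

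**Figure D2:**
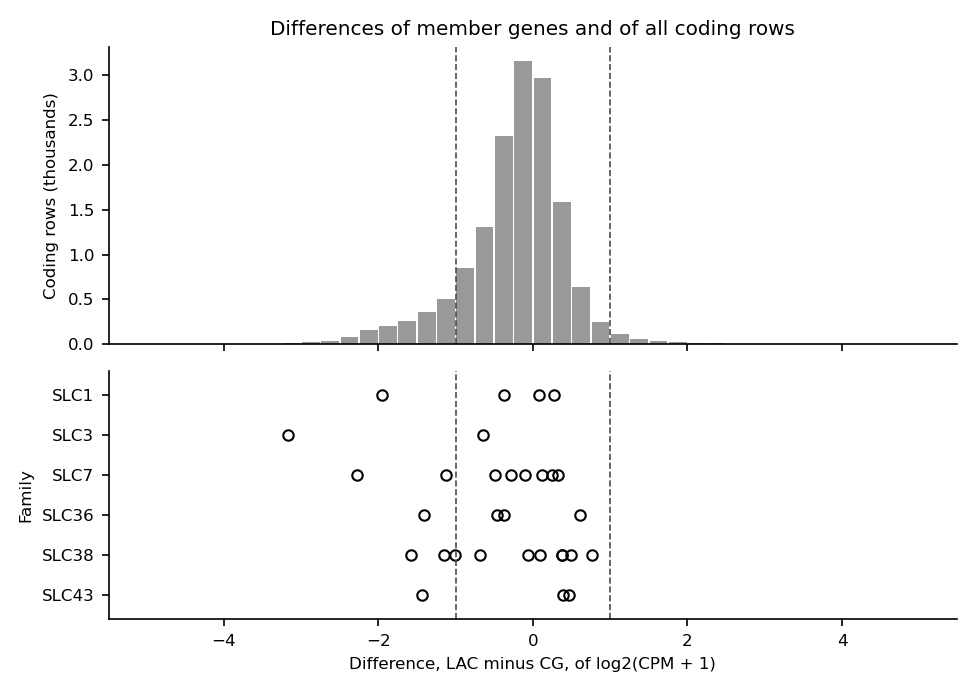
The upper panel counts all 15009 coding rows with enough counts by their difference, LAC minus CG, of log2(CPM + 1). The lower panel shows the 31 members by family, with the size rule at -1 and 1 as dashed lines: 9 members lie below -1 and 0 above 1.

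The heavy chain of the amino acid exchanger for cystine and cationic amino acids had the largest difference of any member. SLC3A1, which encodes the heavy chain rBAT (OryCun2.0, sequence NC_013670.1, 141937997 to 141980585, minus strand), stood at 36.8 CPM in CG, against 3.20 in LAC. It was thus 11.5-fold lower in LAC (95% interval 9.50 to 14.2), a difference of -3.17. Its known partner in kidney and gut is SLC7A9, the light chain of system b0,+. SLC7A9 stood at 0.733 CPM in CG, against 0.884 in LAC, and the interval of its ratio, 0.700 to 2.08, held 1. There were 50.2 counts of SLC3A1 for each count of SLC7A9 in CG and 3.62 in LAC. The ratio is not scaled by length, so its level cannot be read. It rests on 58 and 60 counts of SLC7A9, which are uncertain because that row overlaps an opposite-strand gene and other rows are described as the same protein. SLC7A13, another light chain that can pair with rBAT, had no count in either library, and LOC100348219, described as SLC7 member 13, had 11 counts in CG and 44 in LAC. SLC3A1 overlaps the opposite-strand gene PREPL, at 67.5 and 35.4 CPM, over 1405 bases. The library kit marks strand, but whether the counting used it is uncertain.

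The other heavy chain was not called. SLC3A2, which encodes 4F2hc, the common partner of most other SLC7 light chains, stood at 45.8 CPM in CG, against 29.1 in LAC, 1.57-fold lower (1.45 to 1.70). Its row overlaps HNRNPUL2 on the opposite strand over 1878 bases, and HNRNPUL2 had 236 and 219 CPM. The light chains of SLC3A2 went different ways. SLC7A7, the light chain y+LAT1, which exports cationic amino acids in exchange for neutral ones (NC_013685.1, 43016659 to 43053180, minus strand), stood at 63.1 CPM in CG, against 12.2 in LAC. It was 5.16-fold lower (4.65 to 5.74), with a difference of -2.28. SLC7A6, the light chain y+LAT2 of the same transport system, stood at 24.6 CPM in CG, against 31.2 in LAC, 1.27-fold higher (1.16 to 1.39), and was not called. For each count of SLC7A6 there were 2.56 counts of SLC7A7 in CG and 0.391 in LAC.

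The light chains of system L, which carry large neutral amino acids such as leucine, were not called. SLC7A5, the light chain LAT1, had 15.2 and 12.3 CPM in CG and LAC, 1.23-fold lower (1.09 to 1.40). SLC7A8, the light chain LAT2, had 5.70 and 6.95 CPM, 1.22-fold higher (1.01 to 1.47). SLC7A7 and SLC7A8 lie 294 kb apart on the same sequence, and of these neighbours the first was called and the second was not. SLC7A11, the light chain of the cystine and glutamate exchanger that supplies cysteine for glutathione, had 80 counts in CG and 29 in LAC. That is 1.01 and 0.427 CPM, 2.37-fold lower (1.31 to 4.88), with a difference of -0.49 that was not called. SLC7A10, the light chain of system asc, had no count in either library.

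The cationic amino acid transporters of system y+ work without a heavy chain. SLC7A2, which encodes CAT2 and carries arginine and lysine (NC_013670.1, 68114799 to 68200503, minus strand), stood at 74.0 CPM in CG, against 33.6 in LAC. It was 2.20-fold lower (2.06 to 2.36), with a difference of -1.12. SLC7A1, which encodes CAT1, had 4.89 and 4.51 CPM, and the interval of its ratio, 0.875 to 1.35, held 1. SLC7A3 had no count in either library, and the related SLC7A4 and SLC7A14 had at most 4 counts. A row outside the name rule, LOC100350376, is described in the files as cationic amino acid transporter 3. It stood at 10.1 CPM in CG, against 2.16 in LAC, 4.64-fold lower (3.59 to 6.0), and this difference, -1.80, also passed the size rule. The reads of near-identical copies can be split between rows, but how alike these rows are was not tested. SLC7A3 at no count and this row are therefore not taken as independent statements about CAT3.

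Among the glutamate transporters, SLC1A2 was lower in LAC and SLC1A3 was not. SLC1A2, which encodes EAAT2, best known for clearing glutamate in the brain (NC_013669.1, 174573106 to 174726773, minus strand), stood at 7.16 CPM in CG, against 1.12 in LAC. It was 6.40-fold lower (4.56 to 9.25), with a difference of -1.95. SLC1A3, which encodes EAAT1, had 2.59 and 3.33 CPM, with an interval of 0.980 to 1.71. SLC1A6 had no count in either library. SLC1A1, the gene of EAAT3, shares a row with LOC100359182 in the files and so falls outside the rule. That joint row stood at 12.2 CPM in CG, against 4.12 in LAC, 2.95-fold lower (2.44 to 3.59), a difference of -1.36 past the size rule. LOC103350182 and LOC100346895, both described as EAAT5, had 14 and 3 counts in CG and 0 in LAC.

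The neutral amino acid exchangers of the same family were not called. SLC1A4, which encodes ASCT1, stood at 28.5 CPM in CG, against 30.2 in LAC, and its interval, 0.971 to 1.15, held 1. SLC1A5, which encodes the glutamine exchanger ASCT2, had 41.8 and 31.8 CPM, 1.31-fold lower (1.22 to 1.42).

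The sodium-coupled transporters of system A, which concentrate glutamine, alanine and other small neutral amino acids, held both directions. SLC38A1 (SNAT1; NC_013676.1, 573793 to 612085, plus strand) stood at 116 CPM in CG, against 57.1 in LAC, 2.04-fold lower (1.93 to 2.15). SLC38A2 (SNAT2; 538015 to 549873 on the same sequence and strand) stood at 174 CPM in CG, against 226 in LAC, 1.30-fold higher (1.26 to 1.35), and was not called. These neighbours lie 23.9 kb apart, and their differences, -1.01 and 0.38, have opposite signs. There were 0.669 counts of SLC38A1 for each count of SLC38A2 in CG and 0.252 in LAC. SLC38A4 (SNAT4), which lies 200 kb from SLC38A2, had 1.65 and 2.74 CPM, 1.66-fold higher (1.19 to 2.29).

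System N carries glutamine, histidine and asparagine and can run in both directions. SLC38A3 (SNAT3) is known in mouse cumulus cells as a transporter that signals from the oocyte keep high. Here it had no count in either library. With 3 reads, or 6 counts, as the limit that a count of 0 allows, its level could be up to 0.0758 CPM in CG and 0.0884 CPM in LAC. SLC38A5 (SNAT5) had 56 counts in CG and 130 in LAC, which is 0.707 and 1.91 CPM. It was 2.71-fold higher (1.71 to 4.38), the largest fold among the 31 genes on the higher side, but its difference of 0.77 was not called.

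Of the remaining SLC38 genes, 2 of 6 were lower by the size rule. SLC38A9 is a lysosomal arginine transporter and sensor that acts with the Rag GTPases on the growth kinase complex mTORC1 (NC_013679.1, 71521235 to 71620772, minus strand). It stood at 58.3 CPM in CG, against 25.7 in LAC, 2.27-fold lower (2.10 to 2.46), with a difference of -1.15. SLC38A8 (NW_003159690.1, 6437 to 30168, minus strand) had 4.89 and 0.972 CPM, 5.03-fold lower (3.47 to 7.53), with a difference of -1.58. SLC38A7, which moves glutamine and asparagine out of lysosomes, had 11.0 and 14.6 CPM, 1.32-fold higher (1.16 to 1.51). SLC38A10, whose row covers only the stretch from 7 to 3662 of a short sequence, had 15.8 and 16.8 CPM, and SLC38A6 had 8.26 and 7.86 CPM, and both intervals held 1. SLC38A11 had 1.97 and 0.854 CPM, 2.31-fold lower (1.49 to 3.67), and was not called. The lysosomal members SLC38A9 and SLC38A7 thus had differences of opposite sign.

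The transporters of the SLC36 family also differed in direction. SLC36A1, which encodes PAT1, an exporter of small neutral amino acids from lysosomes (NC_013671.1, 32917899 to 32971764, plus strand), stood at 20.8 CPM in CG, against 7.22 in LAC. It was 2.88-fold lower (2.49 to 3.33), with a difference of -1.41. SLC36A4, a high-affinity carrier of proline and tryptophan, stood at 49.1 CPM in CG, against 75.3 in LAC, 1.53-fold higher (1.44 to 1.63), and was not called at 0.61. The neighbours of SLC36A1 on the same sequence had few counts: SLC36A2 had 23 counts in CG and 0 in LAC, and SLC36A3 had 47 and 11. SLC36A2 was at least 3.29-fold lower against the limit of 6 counts, and SLC36A3 was 3.66-fold lower (1.37 to 10.3). Neither was called, at -0.37 and -0.46.

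Among the SLC43 facilitators 1 of 3 was lower. SLC43A2, which encodes LAT4, a carrier of branched-chain amino acids and phenylalanine (NC_013687.1, 16513761 to 16550272, plus strand), stood at 13.6 CPM in CG, against 4.36 in LAC. It was 3.11-fold lower (2.59 to 3.76), with a difference of -1.44. SLC43A1, which encodes the related LAT3, had 9.21 and 13.1 CPM, 1.42-fold higher (1.24 to 1.64). SLC43A3, a family member that carries purine nucleobases, lies 46.4 kb from SLC43A1 and had 10.7 and 14.3 CPM, 1.34-fold higher (1.17 to 1.53). The pair of neighbours had differences of 0.47 and 0.39, and neither was called.

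Across the 30 members with enough counts and a count in both libraries, the counting interval of the ratio lay below 1 for 15, above 1 for 9 and held 1 for 6. The 9 above 1 were SLC38A2, SLC38A4, SLC38A5, SLC38A7, SLC36A4, SLC43A1, SLC43A3, SLC7A6 and SLC7A8, with folds from 1.22 to 2.71. These intervals compare the libraries, not the ammonia groups. In systems A and y+L, and in the SLC36 and SLC43 families, a called member stood beside a member with an interval above 1.

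Scaling bears on the members nearest to the limit. TMM factors from coding rows alone raised LAC against CG by 0.18 on the log2 scale, which moved the differences of low members by less. SLC38A1, SLC38A9 and SLC7A2 were then no longer called. Over 8 settings of scaling, pseudocount and unit, SLC3A1, SLC7A7 and SLC36A1 were called in each. The sign of 29 of the 31 members was the same in all 8, and those of SLC38A6, from -0.12 to 0.09, and SLC7A1, from -0.14 to 0.05, were not.

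**Figure D3:**
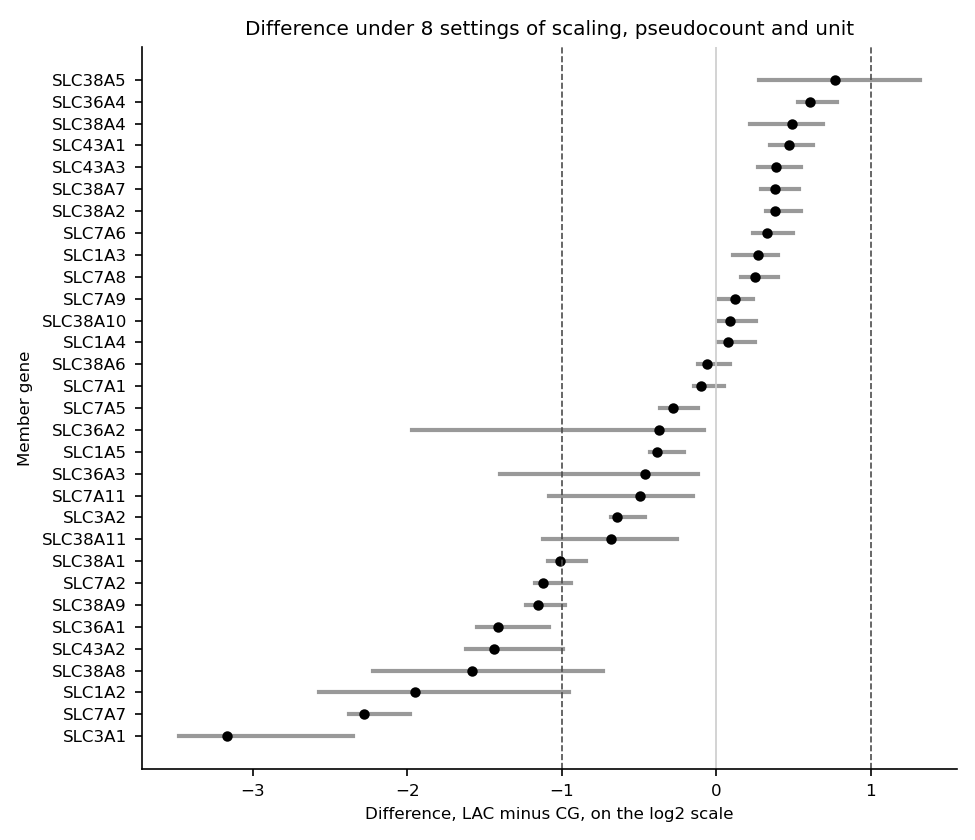
Difference of each of the 31 members, LAC minus CG on the log2 scale. Points are the TMM value with a pseudocount of 1, grey bars run from the lowest to the highest value over 8 settings, and dashed lines are the size rule: the bars of SLC3A1, SLC7A7 and SLC36A1 lie wholly below -1.

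Markers of the oocyte were lower in the same library. Of 29 oocyte markers, 25 were matched by name in the files, and 25 of 25 were lower in LAC by the size rule, with a median of -2.11 and a range from -2.88 to -1.28. Their levels summed to 7200 CPM in CG and 1480 CPM in LAC. Of the 9 called members, 5 had a difference inside that range, SLC3A1 lay below its lowest value, and SLC38A9, SLC7A2 and SLC38A1 lay above its highest. Of 18 granulosa and cumulus markers, 15 were matched, 0 of 15 passed the rule, and their median was 0.05. Their differences ranged from -0.90, for IHH, to 0.70, for CYP19A1 and KITLG. With the granulosa and cumulus markers centred at 0, the same 9 members were called. This centring moved the LAC scale by only -0.05 against TMM, toward lower values, so no lower call could be lost by it. It says nothing about the share of oocyte RNA in the libraries. Stroma markers had 5 of 8 higher and 1 lower, and summed to 42.1 and 141 CPM. Endothelial markers summed to 49.0 and 8.08 CPM, of which TEK made up 46.7 and 4.23, while CDH5 had no count in CG. TEK, at -3.19, was the only endothelial marker called. Of the 6 markers 4 had differences above 0, and the list median was 0.16. Markers of blood-derived cells summed to 18.9 and 12.3 CPM, and MS4A1, called lower, had 1109 and 192 counts. The other 4 with enough counts had values above 0, CD163 among them was called higher, the list median was 0.52, and CD3E had no count in both. Epithelial markers summed to 82.9 and 21.8 CPM, with CDH1 and EPCAM called lower, KRT18 called higher, KRT8 at 0.84 and PAX8 at no count in both. Smooth muscle markers summed to 49.1 and 43.8 CPM, of which MYH11 made up 47.2 and 36.3. The other 3 had differences above 0, DES and LMOD1 were called higher, and the list median was 0.93. Of the theca and steroid markers 3 were matched, and they summed to 115 CPM in both libraries. Their differences had both signs, with STAR at -0.48, CYP11A1 at 0.25 and LHCGR at 0.56, and CYP17A1 and INSL3 were not matched. In bulk RNA, fewer cells of a type and less RNA per cell cannot be told apart, and the part of these marker differences in the members' values was not tested.

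Of 27 other amino acid, peptide and neurotransmitter carriers and their partners, 25 were matched and 17 had enough counts. In LAC 5 of the 17 were lower by the size rule, SLC17A8, SLC6A6, SLC6A20, SLC6A5 and CTNS, and 0 were higher, with a median of -0.34. Among all coding rows with enough counts 11.0% were lower and 1.89% higher, with a median of -0.14. SLC17A8, a vesicular glutamate transporter, stood at 8.17 CPM in CG, against 1.53 in LAC, 5.34-fold lower (3.98 to 7.31). SLC6A6, the taurine transporter, had 22.8 and 5.89 CPM, 3.88-fold lower (3.32 to 4.54). SLC6A20, a proline and imino acid transporter, had 5.15 and 1.02 CPM, 5.07-fold lower (3.57 to 7.63). SLC15A4, a lysosomal histidine and peptide transporter, had 28.7 and 22.5 CPM and was not called. CTNS, which exports cystine from lysosomes, had 22.6 and 9.09 CPM, 2.49-fold lower (2.19 to 2.85).

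A list of genes that sense amino acids or respond to their lack was set beside the members. Of 44 listed, 42 were matched, 2 were lower and 0 higher, with a median of -0.09. The coding rows had 11.0% lower and 1.89% higher, with a median of -0.14. The 2 lower genes were ATF4, the transcription factor whose translation rises when amino acids are short, and CHAC1, an enzyme that breaks down glutathione. ATF4 stood at 18.7 CPM in CG, against 2.77 in LAC, a difference of -2.39, and CHAC1 had 10.7 and 2.00 CPM, a difference of -1.96. The known ATF4 target ASNS, the asparagine synthetase gene, had 48.3 and 26.6 CPM, 1.81-fold lower (1.68 to 1.97), and was not called. Apart from CHAC1, other known targets had differences on both sides of 0, and none of those named here was called. Among the members SLC3A2, SLC7A5 and SLC7A11 had -0.64, -0.28 and -0.49, and SLC38A2 had 0.38. In the list DDIT3 had 0.17, TRIB3 0.27, PHGDH 0.70 and PSAT1 -0.02. TRIB3 rested on 10 and 24 counts, and the interval of its ratio, 0.918 to 10.1, held 1. SESN2 had -0.56, SHMT2 -0.46, PSPH and CEBPG -0.40 and DDIT4 -0.21. Over the 42 matched genes of the list 18 differences were above 0 and 24 below. SESN3, a sestrin of the leucine sensing branch, had 155 and 226 CPM, and VLDLR, the receptor for very low density lipoprotein, had 229 and 207 CPM. The Rag GTPase genes RRAGA, RRAGC and RRAGD, which work with SLC38A9, had differences of -0.51, -0.67 and -0.63, and RRAGB had 0.33.

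**Figure D4:**
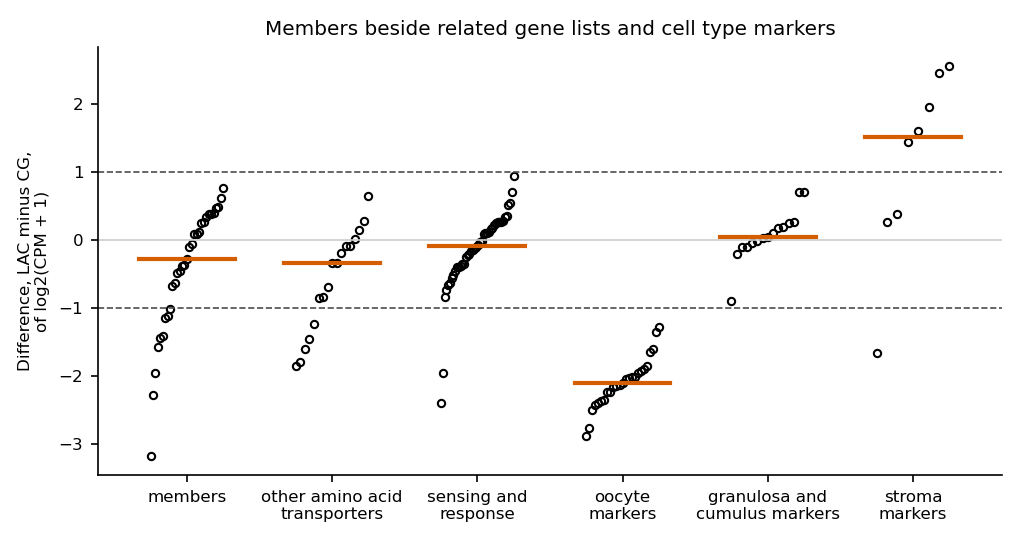
Difference, LAC minus CG of log2(CPM + 1), of each gene with enough counts in the member families and in 5 other lists. Bars are medians and dashed lines the size rule: the oocyte markers lie wholly below -1, and the members spread from -3.17 to 0.77.

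The 6 assembled rows that carry a member's name had at most 203 counts, and 0 of 6 were called. The row at SLC7A6 lies outside that gene, at 23839612 to 23840932 on NC_013673.1, where the gene ends at 23826352, and had 122 and 191 counts. The other 5 lie inside the member and are intronic single-exon loci of the long non-coding table, which also has values of the library labelled HAC. Among all long non-coding loci whose higher value was at least 1 FPKM, 23.9% differed by the size rule in LAC against CG, 13.9% in HAC against CG and 26.9% in HAC against LAC. Of the 5 loci in member genes 4, 5 and 4 reached that minimum in these comparisons, and 0, 0 and 1 of them did so. The locus in SLC36A4, on the strand opposite to the gene, measured 0.77 FPKM (CG), 2.06 FPKM (LAC) and 1.98 FPKM (HAC). The locus in SLC38A6 had 0.89, 1.81 and 1 FPKM, and that in SLC1A5 had 1.23, 0.78 and 1.83 FPKM. The locus in SLC7A9 had 1.4, 0.86 and 0.53 FPKM. The locus in SLC38A8 measured 0.84 FPKM (CG) and 1.41 FPKM (HAC), with 0 listed under LAC, and it was the 1 past the rule, in HAC against LAC. In LAC against CG this locus did not reach 1 FPKM and was not called, with 24 counts in CG and 0 in LAC. Its host gene SLC38A8 was called lower in LAC against CG, whereas HAC had no gene-level value to set beside it. The values of HAC at these loci rest on the same uncertain labels.

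**Figure D5:**
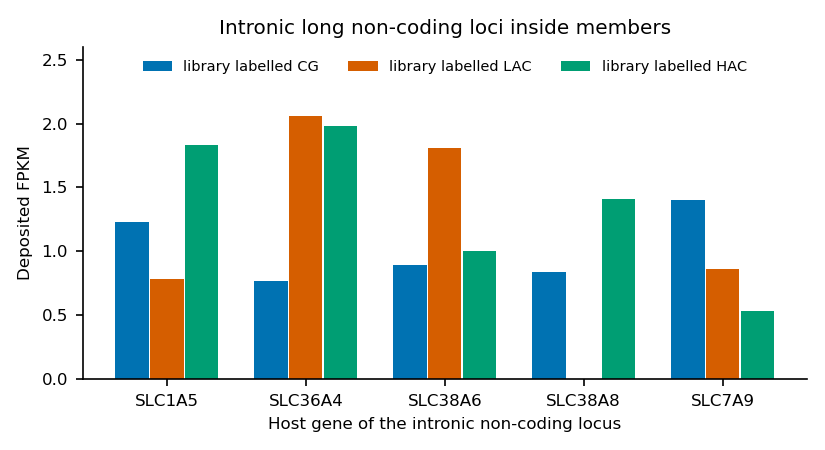
Deposited FPKM of the 5 intronic long non-coding loci inside member genes in the libraries labelled CG, LAC and HAC, 1 library each. The locus in SLC38A8 is listed at 0 in LAC, and the locus in SLC36A4 had 0.77 FPKM in CG against 2.06 and 1.98 in the others.

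A further 3 rows outside the name rule are described in the files as b(0,+)-type amino acid transporter 1, the protein of SLC7A9. LOC108175422 stood at 1.74 CPM in CG, against 1.02 in LAC, 1.72-fold lower (1.14 to 2.71). LOC103346641 had 1.11 and 1.53 CPM, with an interval of 0.904 to 2.11, and LOC100338723 had 8 and 15 counts. None of these 3 was called. SLC7A9 itself also overlaps TDRD12 on the opposite strand over 18321 bases, and TDRD12 had 46.2 and 34.9 CPM, so the low values of SLC7A9 are uncertain.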

How the data were processed

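Total RNA of cumulus-oocyte complexes, depleted of ribosomal RNA per the labels, was sequenced in 3 libraries, 1 for each ammonia group. Per the submitters' processing notes the authors used fastp and HISAT2, with OryCun2.0 as genome build. The tool that estimated abundance is not given in these sources. The deposited estimated counts and FPKM of genes, and the deposited coverage signal and FPKM of long non-coding transcripts, were read per the file headers. Coverage served only to check what a count stands for. The gene values in the HAC file repeat those of LAC, so 2 columns were left unused. TMM factors were computed with 30% of ratios and 5% of levels trimmed, on all rows, and the code was tested on simulated data. Coding rows hold a RefSeq messenger RNA. The code ran under Python 3.11.15 with SciPy 1.17.1, numpy 2.4.6, pandas 2.3.3 and matplotlib 3.10.9. Deposited FPKM was not used to compare genes, since counts per FPKM ranged from 21.5 to 738 over 26 members. Intervals were computed on halved counts, and reads without molecular identifiers are not independent molecules. Members, gene lists and tests were chosen with earlier results of these data known. Values are given for called members and for the 2 highest of each transport system, and other members are accounted for. In the 2 related lists the 3 with the largest called difference and the 2 with the highest mean are named. SLC6A5, ASNS, DDIT3, TRIB3, PHGDH, PSAT1, SESN2, SHMT2, PSPH, CEBPG, DDIT4 and the Rag GTPase genes were added after their values were seen. So were PREPL, HNRNPUL2, TDRD12 and the rows outside the name rule. The alternatives were other scalings, pseudocounts, count minimums and FPKM.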

Additional observations from a re-analysis of the deposited data

How the results depend on the processing

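The 9 members lower in LAC were 6 with TMM over coding rows alone, 13 with a pseudocount of 0.1, 5 with a pseudocount of 5, 8 with deposited FPKM and 2 with a difference of at least 2. The 2 were SLC3A1 and SLC7A7. A pseudocount of 0.1 also gave 1 higher member, SLC38A5. The background moved too: with TMM over coding rows 8.93% of coding rows were lower and 2.64% higher. With a pseudocount of 0.1, 18.3% were lower and 6.28% higher. The share lower was 6.06% with a pseudocount of 5, 9.51% with FPKM and 2.15% with a difference of at least 2. The median of the members was -0.12 with TMM over coding rows, beside -0.00 for the coding rows. It was -0.31 with median-of-ratios factors, beside -0.17, and -0.31 with library totals, beside -0.16. Centred on the granulosa and cumulus markers it was -0.33, beside -0.18. With pseudocounts of 0.1 and 5 it was -0.30 and -0.08, beside -0.17 and -0.07. With FPKM both medians were -0.14. With no count minimum the members had -0.10, beside -0.11, and with a minimum of 100 they had -0.10, beside -0.17. The other transporters had 9 lower and 2 higher with a pseudocount of 0.1, 2 lower with 5 and 0 lower with a difference of at least 2. The sensing genes had 1 higher with TMM over coding rows, 2 higher with a pseudocount of 0.1 and 1 lower with a difference of at least 2. At the intronic loci, a pseudocount of 0.1 gave 1, 2 and 2 past the rule in LAC against CG, HAC against CG and HAC against LAC, and a minimum of 5 FPKM, which none of the 5 reached, gave 0 in HAC against LAC. A smaller pseudocount enlarges the differences of low genes by construction, and the cause of the other shifts was not tested. No called member reversed its direction. No paired analysis was possible because each group has 1 library. Depth limits the members under 1 CPM most, where the folds of SLC36A3 and SLC7A9 have wide intervals.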
